A study of Mus musculus with 4 samples.

Results

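Daidzein plus testis extract was compared with PBS in mouse 3T3-L1 adipocytes, gene by gene, on 1 array a side. The members are the genes, grouped by the name the array file gives, whose signal was well above background on the daidzein+PT array and on the PBS array. There were 18471 such genes of 34797 on the array. 3T3-L1 is a mouse fibroblast line that turns into fat-storing cells in culture when it is induced. The cells had been induced into adipocytes and were then kept for 7 days with PBS (the control), with 25 uM daidzein, with PT at 100 ug/ml, or with daidzein and PT at those same doses. Daidzein is an isoflavone of soy, PT is an extract of pig testis, and the series asks whether PT changes adiponectin expression. All 4 groups share the cell line and the induction, and no genetic change is stated for any of them.

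Adipocytes take up fatty acids and glucose, store them as triglyceride in lipid droplets, release them again by lipolysis and secrete hormones such as adiponectin. The nuclear receptor PPARg and the factor C/EBPa hold this programme in place and act directly on many of its genes. The interferon response, by contrast, is an antiviral programme that most cell types can run, in which factors activated by the interferon receptor act on promoters that carry a short GAAA repeat.

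Total RNA was labelled with Cy3 and read on single-colour arrays of 60-base probes, 62976 spots each. Levels are log2 intensities relative to the 75th percentile of an array's probes, so that a level of 0 lies at that percentile, and a difference is the daidzein+PT level minus the PBS level. The 75th percentile was an intensity of 372 for PBS and 360 for daidzein+PT, and 50.7% and 49.7% of the spots were well above background. There were no replicates, so no test between treatments could be made and nothing below carries a p-value. The scanner software's own error of a difference, which rests on a preset error of 10% per spot, had a median of 0.20, and copies of a probe on 1 array gave differences with a median SD of 0.06. Neither covers the spread between cultures, and 7 spike-in probes differed by -0.13 to 0.04. The PBS array lay in row 1, column 3 of the slide and the daidzein+PT array in row 2, column 2, so treatment and slide position cannot be told apart. In these bulk samples a change in the share of differentiated cells and a change in RNA per cell cannot be told apart either.

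With daidzein+PT, adipocyte genes stood above PBS and genes of the interferon response stood below it. Of the 18471 genes, 474 (2.57%) had 2 times the PBS level or more with daidzein+PT, while 101 (0.547%) were lower by that factor or more. The imbalance was larger at greater folds, with 150 genes at least 4-fold higher against 1 lower, and 53 against 0 at 8-fold. The median gene lay at -0.03 and 45.3% of genes were above 0, which the scaling of each array on its own 75th percentile largely sets, so a shift common to all genes could not be measured. The 251 higher and 52 lower genes of the dimmest 6157 outnumbered the 96 and 12 of the brightest 6157. Each gene was counted on its brightest probe. Of the 474 higher genes 108 had several probes, with all probes at 2-fold in 53 and probes of opposite sign in 16. Of the 101 lower genes 13 had several probes, with all at 2-fold in 10 and opposite signs in 1. Scaled on array medians, which moved the median of all genes to -0.24, 373 genes were higher and 238 lower, and the share of higher genes among those at 2-fold was 61.0% against 82.4%. With normexp background correction, which pulls dim signals together, 287 were higher and 37 lower.

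**Figure D1:**
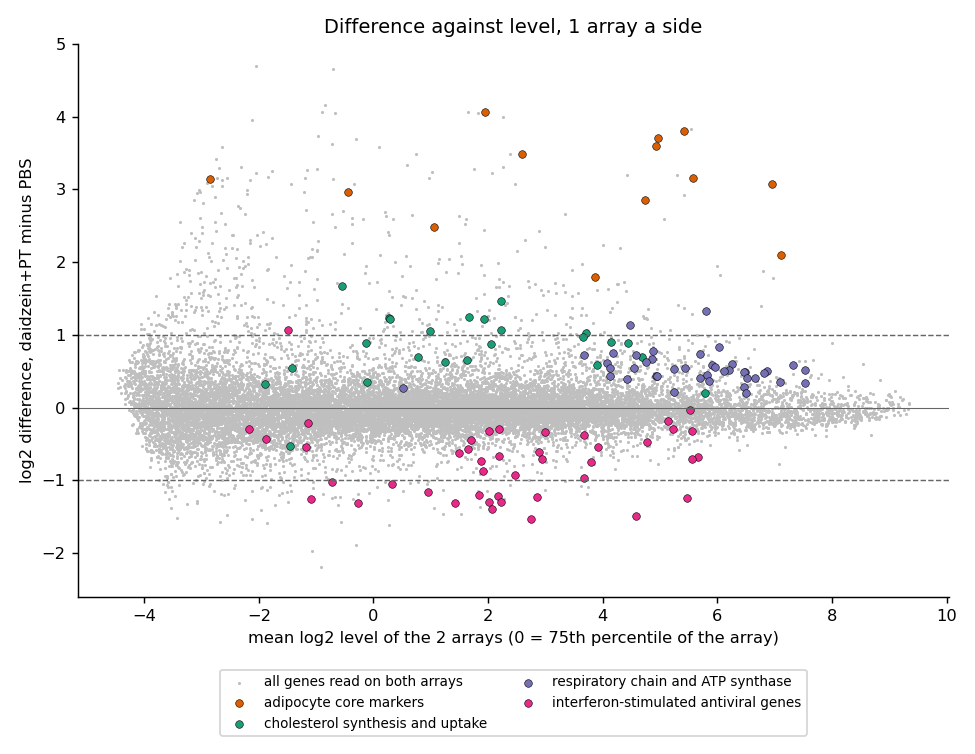
Each point is a gene read on both arrays, with its mean log2 level on the x axis, its log2 difference (daidzein+PT minus PBS) on the y axis and dashed lines at 2-fold. Adipocyte markers sit from 1.80 to 4.06, respiratory chain genes lie above 0 in a narrow band, and nearly all interferon-stimulated genes lie below 0 at every level.

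Adipocyte markers were read on both arrays. Of 14 adipocyte markers, 13 were read on both arrays and Lep, the leptin gene, on neither. All 13 were at least 2-fold higher with daidzein+PT, with a median difference of 3.15 (8.85-fold) beside -0.03 for all genes, and a range from 1.80 to 4.06. Adipoq, the adiponectin gene, had levels of 4.0 with PBS, 6.31 with daidzein, 5.08 with PT and 7.15 with daidzein+PT, a difference of 3.15 with an error of 0.20. Each treated array was above PBS and the combination was the highest. Slc2a4, the insulin-responsive glucose transporter GLUT4, had levels of -0.09, 2.51, 1.25 and 3.97 in the same order. Cfd, the serine protease adipsin, had 3.52, 6.47, 4.62 and 7.32. Cidec, which fuses lipid droplets, had 3.11, 6.21, 4.44 and 6.81. In these genes, too, the arrays stood in the order PBS, PT, daidzein, daidzein+PT. Resistin (Retn) was higher by 3.60, the droplet coat perilipin 1 (Plin1) by 3.48, and the fatty acid binding protein Fabp4, whose probe was among the brightest of those at 2-fold, by 3.07. Pparg itself had the smallest difference, with levels of 2.97 on PBS and 4.77 on daidzein+PT. Adrb3, the beta-3 adrenergic receptor, was dim on PBS (level -4.43), and its difference of 3.15 was 1.43 with normexp.

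The genes with the largest differences were of the same kind. Arxes1, an X-linked retrogene needed for adipogenesis, led the 25 highest genes of the upper 12314 by level. Its probe (mm9 chromosome X, 132569382 to 132569441) had levels of -3.03 with PBS, 0.70 with daidzein, -1.52 with PT and 1.62 with daidzein+PT, a difference of 4.66 or 25.2-fold. Its neighbour Arxes2 was higher by 3.31, whereas Spcs3, the signal peptidase gene from which both derive, lay at -0.06. Mgll, which splits the last fatty acid off glycerol, followed with levels of -2.92, 0.01, -1.71 and 1.24 and a difference of 4.16, and its other probe gave 4.13. Cd36, a fatty acid transporter, had levels of -0.39, 2.80, 0.91 and 3.68. Gpd1, which makes glycerol phosphate for triglyceride, had 3.63, 6.61, 5.09 and 7.45. Arxes1, Mgll, Cd36 and Gpd1 were each lowest on the PBS array and highest on the daidzein+PT array. Of the 25, 20 were members of a list described here. The others were Cmbl, a hydrolase (3.62), Adig, the adipogenesis factor adipogenin (3.48), Poln, a DNA polymerase (3.34), Syn2, a synaptic vesicle protein (3.24), and Trem2, a lipid-sensing receptor of myeloid cells (3.16).

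**Figure D2:**
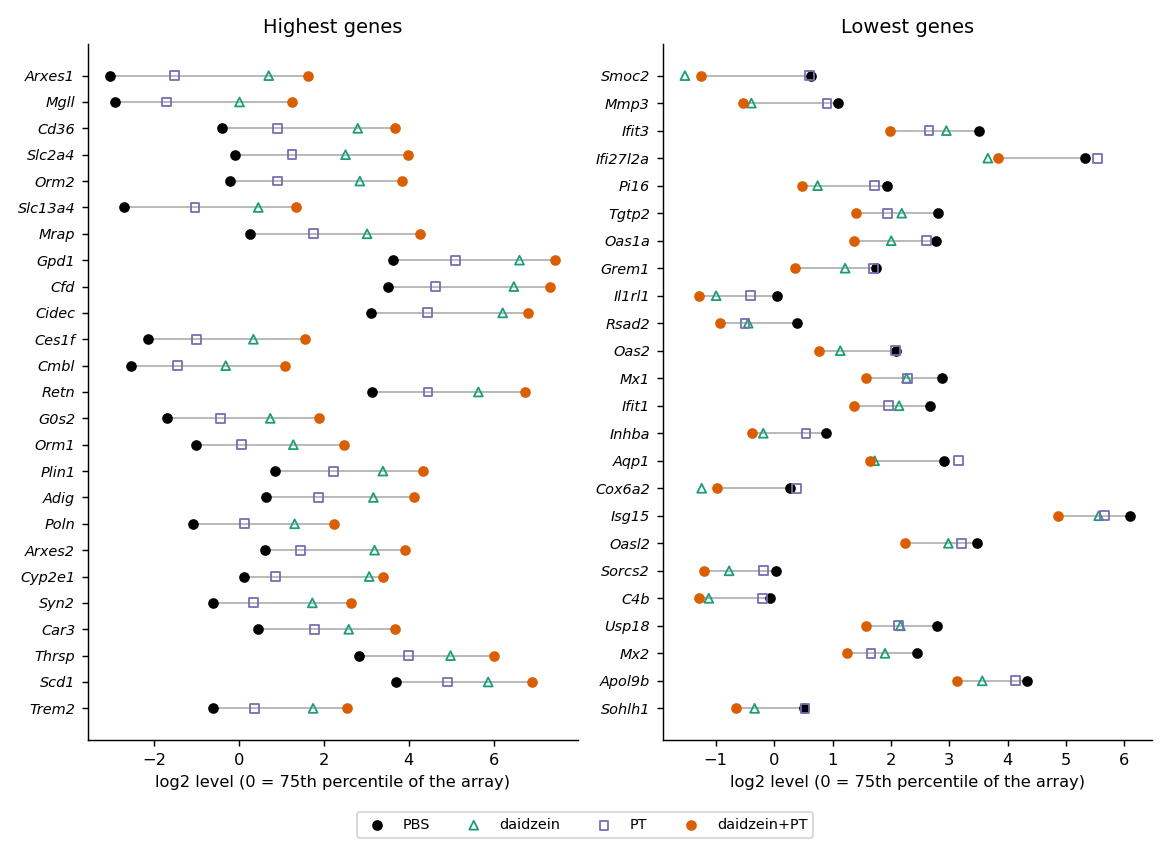
Log2 levels (x axis, 0 is the array's 75th percentile) of the 25 highest and 24 of the 25 lowest named genes on each of the 4 arrays, 1 point per array, with a line from PBS to daidzein+PT. The highest run from Arxes1 (4.66) to Trem2 (3.16) and the lowest from Smoc2 (-1.89) to Sohlh1 (-1.17).

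The steps of fat storage did not move evenly. Of the 20 uptake and binding genes 19 were read, 6 were at least 2-fold higher and 0 lower, and the median was 0.16, which became -0.05 when arrays were scaled on their medians. The 6 were Cd36 (4.07), Fabp4 (3.07), Acsl1, an acyl-CoA synthetase (2.93), lipoprotein lipase Lpl (2.10), Fabp5 (1.87) and caveolin Cav1 (1.18, and 0.96 on array medians). Their relatives Slc27a1 (0.07), Slc27a4 (0.04), Acsl4 (-0.05) and Fabp3 (0.16) lay near 0. In triglyceride assembly 7 of 16 genes read were at least 2-fold higher, with a median of 0.53. They held 1 member of nearly every enzyme step: Gpd1, the acyltransferases Gpat3 (3.07) and Agpat2 (1.82), the phosphatase Lpin1 (2.08), both final acyltransferases Dgat2 (2.24) and Dgat1 (1.70), and the glycerol channel Aqp7 (1.26, and 0.45 with normexp). Dgat2 had levels of 2.88 with PBS, 4.17 with daidzein, 4.04 with PT and 5.12 with daidzein+PT. Other forms of the same enzymes differed less, with Agpat1 at 0.43, Agpat3 at 0.27, Gpam at 0.59 and Lpin3 at -0.44. Members of 1 enzyme family thus differed by unequal amounts.

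Lipid droplet and lipolysis genes also differed unequally within families. Of 13 droplet genes read, 5 were at least 2-fold higher, Cidec (3.71), G0s2 (3.59), Plin1 (3.48), Fitm2 (1.70) and Plin4 (1.37), and the median was 0.30. Plin2, the droplet coat found in most tissues, lay at 0.20 and Plin3 at -0.23. Lipolysis genes had a median of 2.19 over 13 genes read of 19, and of 1.08 with normexp. Here 7 were at least 2-fold higher and 0 lower. They included the lipases of each step in order: Pnpla2, which starts triglyceride breakdown (levels 3.30, 5.53, 4.24 and 6.16 for PBS, daidzein, PT and daidzein+PT), Lipe, the hormone-sensitive lipase (-1.92, 0.37, -1.01 and 1.04), and Mgll. G0s2, a protein inhibitor of Pnpla2, was higher by 3.59, and Abhd5, its activator, by 0.94. The 3 probes of Abhd5 ran from 0.21 to 0.94. The carboxylesterases Ces1f and Ces1d, whose probes lie within 86.6 kb on mm9 chromosome 8, were higher by 3.70 and 2.19. Lysosomal acid lipase Lipa was at -0.47 and the cytosolic hydrolase Abhd6 at -0.03.

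Fatty acid and cholesterol synthesis genes were mostly above 0. Of 23 fatty acid synthesis genes read, 20 were above 0, 6 were at least 2-fold higher and 0 lower, with a median of 0.57. Scd1, the main desaturase of adipocytes, had levels of 3.70 with PBS, 5.87 with daidzein, 4.91 with PT and 6.90 with daidzein+PT. Thrsp, a regulator of lipogenesis, had 2.82, 4.98, 4.0 and 6.02. Fatty acid synthase Fasn was higher by 1.35, Acss2, which makes acetyl-CoA, by 1.33, and malic enzyme Me1 by 1.15 (0.93 on array medians). Scd1 and Thrsp thus stood well apart from the rest, and the elongase Elovl6 lay at -0.54. The citrate carrier Slc25a1 sat on the threshold at 1.01 and was just under it in 4 of the alternatives.

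Cholesterol synthesis was more even. Of 24 genes read, 23 were above 0 and 9 were at least 2-fold higher, with a median of 0.89 (1.85-fold). They included genes along the pathway, from Pmvk (1.02), Mvd (1.22) and Idi1 (1.47) of the early mevalonate steps to Lss (1.23), Tm7sf2 (1.21), Nsdhl (1.05) and Dhcr7 (1.25) of the sterol steps. Insig1, the brake on this pathway that the pathway's own factor induces, had the largest difference (1.68), with levels of -1.38 with PBS, -0.12 with daidzein, -0.87 with PT and 0.29 with daidzein+PT. Hmgcs1, an early enzyme, lay at 0.70. Srebf2, which encodes the factor for these genes, was the 1 member below 0 (-0.53), whereas Srebf1 of the fatty acid branch lay at 0.81. With normexp 6 of the 9 stayed at 2-fold or more.

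**Figure D3:**
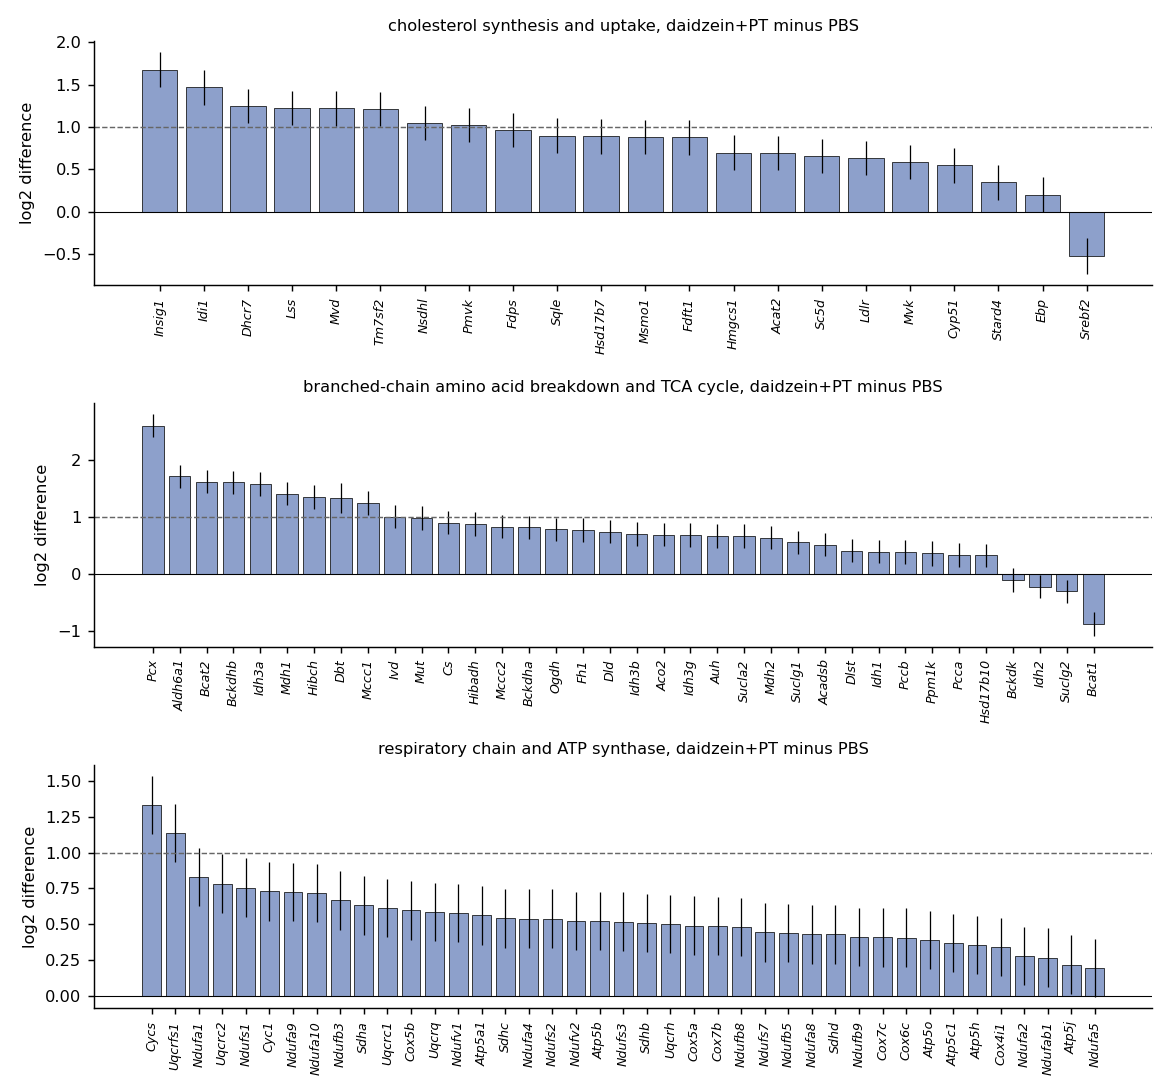
Log2 differences (daidzein+PT minus PBS) of 22 of the 24 genes read in cholesterol synthesis, and of each gene read in branched-chain amino acid breakdown with the TCA cycle and in the respiratory chain; error bars are the scanner software's error of the difference and the dashed line is 2-fold. All 41 respiratory chain genes and 21 of the 22 cholesterol genes plotted are above 0.

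Genes of cholesterol efflux split sharply. All 16 were read, with a median of 0.45, and 7 were at least 2-fold higher. Nr1h3, the sterol receptor LXRa, had levels of 1.42 with PBS, 2.72 with daidzein, 2.01 with PT and 3.58 with daidzein+PT. The efflux transporters Abca1 and Abcg1 were higher by 1.54 and 2.99 (Abcg1 1.34 with normexp), and the lipoprotein receptor Scarb1 by 1.60. Apoc1, Apoc4 and Apoc2, which stand in a row within 17.9 kb on mm9 chromosome 7, were higher by 2.21, 3.25 and 2.66, and with normexp Apoc4 lay at 2.02 and Apoc2 at 1.55. Apoe, of the same gene cluster, was lower, with levels of 3.51 on PBS and 3.10 on daidzein+PT, and Apod lay at -0.77. The receptor Nr1h2, LXRb, lay at 0.03.

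Insulin signalling and sugar handling differed in a few genes. Of 24 genes of insulin signalling and glucose uptake 3 were at least 2-fold higher, and the median was 0.15 (-0.07 on array medians). They included Slc2a4 and its sorting receptor Sort1 (2.60, though the 3 probes ran from 0.46 to 2.61). The kinases and adaptors Akt1 (-0.19), Akt2 (0.10), Irs1 (0.24), Irs2 (0.07) and Pik3r1 (0.01) were close to 0, as was the ubiquitous transporter Slc2a1 (-0.05). Glycolysis and the pentose phosphate pathway had a median of 0.26 over 28 genes, with Pfkfb1 (2.04), Pfkfb3 (1.38), Taldo1 (1.28) and Hk2 (1.06, under 2-fold with normexp) at least 2-fold higher. The Pfkfb enzymes set the level of fructose 2,6-bisphosphate, and Taldo1 belongs to the branch that yields NADPH. Eno3, a muscle enolase, was the lowest at -0.89. Caveolae genes held 3 of 11 at 2-fold, Cav2 (1.20), Cav1 (1.18) and Ehd2 (1.06), and the other Ehd2 probe gave 0.17.

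Mitochondrial genes were mostly higher by a small amount. All 41 respiratory chain and ATP synthase genes were read and all were above 0, with a median of 0.52 (1.43-fold) and a range from 0.20 to 1.33. The lowest, Ndufa5 (0.20 with an error of 0.20), fell just below 0 on array medians. Only Cycs, cytochrome c (levels 5.13, 5.88, 5.29 and 6.46 for PBS, daidzein, PT and daidzein+PT), and Uqcrfs1, the Rieske protein of complex III (3.90, 4.52, 4.07 and 5.03), reached 2-fold, and Uqcrfs1 lay at 0.92 on array medians. The daidzein array lay between PBS and the combination, and the PT array lay nearer to PBS. Some subunits that only certain tissues express differed far more. Cox8b had levels of -2.94, -0.06, -1.85 and 1.13, a difference of 4.06 (2.97 with normexp), while the common form Cox8a was at 0.42. Cox7a1 was higher by 1.97 against 0.63 for Cox7a2. Cox6a2, a form of heart and muscle, was in contrast lower (0.27, -1.24, 0.38 and -0.98), while Cox6a1 lay at 0.38.

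Breakdown of branched-chain amino acids and the TCA cycle stood above the respiratory chain. Of 36 genes read, 32 were above 0 and 10 at least 2-fold higher, with a median of 0.72 (1.65-fold). Pyruvate carboxylase Pcx, which refills the cycle, had levels of 3.78 with PBS, 5.57 with daidzein, 4.56 with PT and 6.37 with daidzein+PT. Aldh6a1 (1.71), Bcat2 (1.62), Bckdhb (1.61), Hibch (1.35), Dbt (1.33, and 0.60 with normexp), Mccc1 (1.25) and Ivd (1.01) cover the steps from transamination of leucine, isoleucine and valine to their acyl-CoA products. Bcat2 is the mitochondrial transaminase, and its cytosolic partner Bcat1 was the lowest member (-0.87). The TCA enzyme Idh3a was higher by 1.58 and the shuttle enzyme Mdh1 by 1.41.

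Oxidation of fatty acids had a median of 0.42, with 22 of 27 genes above 0, and Cpt2 (1.28), Hadhb (1.16) and Acads (1.04) at 2-fold, the latter pair not on array medians. Cpt1a, the entry enzyme of liver type, lay at -0.54. Peroxisome genes had a median of 0.26 over 31 read, with Gnpat, an enzyme of ether lipid synthesis (1.72), Crat (1.42, and 0.96 with normexp), Pex11a (1.37) and Pex16 (1.24) at 2-fold. Thermogenic genes did not move as a set: Ucp1, the defining gene of brown fat, and Prdm16 were read on neither array, Ppargc1a lay at -0.27 and Dio2 at -0.48, and the median over 14 read of 26 was 0.10 (-0.11 on array medians). The members at 2-fold were Cox8b, Cox7a1, Adrb3 and the potassium channel Kcnk3 (3.17, and 1.91 with normexp).

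A few transcription factors of the adipogenic list differed by 2-fold or more. Of 35 read, 6 were at least 2-fold higher and 1 lower, with a median of 0.03 that was below 0 on array medians (-0.19), over all probes and in the upper level groups. Cebpa had levels of -0.19 with PBS, 1.34 with daidzein, 0.54 with PT and 2.29 with daidzein+PT. Klf15 was higher by 2.22 (1.38 with normexp), Nr1h3 by 2.16, Pparg by 1.80, the coactivator Ppargc1b by 1.48 (0.55 with normexp) and the inhibitor of differentiation Id2 by 1.43. The early factors Cebpb (-0.03), Cebpd (-0.19) and Klf4 (-0.04) were near 0, Klf5, which acts between early and late stages, was lower by 1.03 on the log2 scale (0.89 with normexp), and Gata2, a factor of preadipocytes, lay at -0.70. Timp4, Syn2 and Pparg are neighbours on mm9 chromosome 6 and all were at least 2-fold higher.

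Steroid receptors and their targets were looked at because daidzein binds estrogen receptors and a testis extract can hold steroids. Esr1 and the progesterone receptor were read on neither array and Esr2 lay at -0.09. Of 13 estrogen-related genes read, 3 were at least 2-fold higher, Pdzk1 (3.28), Greb1 (2.18 on its brighter probe, 4.50 on the other) and the corepressor Nrip1 (1.15, and 0.94 on array medians), while Ccnd1 (-0.71) and Igfbp4 (-0.50) lay below 0, and the median was 0.03. Pdzk1 had levels of -2.63 with PBS, -0.32 with daidzein, -1.69 with PT and 0.65 with daidzein+PT. The androgen receptor was read on neither array, and 0 of 12 androgen-related genes read on both arrays reached 2-fold. The other 2 of that list detected, Klk1 and Steap4, were read on the daidzein+PT array alone, at least 3.22-fold and 7.34-fold above PBS. Glucocorticoid genes had a median of 0.05, with Hsd11b1, which activates glucocorticoids, at 2.53, and with the response genes Fkbp5 (-0.10), Tsc22d3 (-0.16) and Per1 (-0.02) near 0. The mineralocorticoid receptor Nr3c2 was higher by 2.12 (0.98 with normexp). Medians of the estrogen and glucocorticoid lists were below 0 on array medians and under quantile normalization.

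Secreted products included the largest difference of all named genes. Retnla, a resistin-like protein, had levels of -4.39 with PBS, -1.33 with daidzein, -3.83 with PT and 0.30 with daidzein+PT, a difference of 4.69, which was 2.64 with normexp. Of 20 adipokine genes read, 8 were at least 2-fold higher and 0 lower, with a median of 0.52. Besides Cfd, Retn and Adipoq they were the growth factor Nrg4 (2.90, and 1.41 with normexp), lipocalin 2 (Lcn2, 2.44), chemerin (Rarres2, 2.19) and angiotensinogen (Agt, 1.66). The acute-phase glycoproteins Orm2, Orm1 and Orm3, within 18.6 kb on mm9 chromosome 4, were higher by 4.06, 3.49 and 1.61. Orm2 had levels of -0.21, 2.85, 0.91 and 3.85. These are near-identical copies whose probes may bind each other's RNA, which was not tested. Other acute-phase genes went both ways. Lcn2, also of this list, was at 2.44, the complement gene C3 at 0.89 and Hp at 0.81. Saa3 lay at -0.65, Saa1 at -0.51, Serpina3n at -0.32 and the complement gene C4b at -1.22 (-0.97 with normexp). Of the 18 read, 9 were above 0 and 9 below, and the median was -0.05. Among G protein-coupled receptors the corticotropin receptor Mc2r (3.07) and its accessory protein Mrap (3.99) were both higher, along with Adrb3, the short-chain fatty acid receptor Ffar2 (2.17) and Mc5r (1.34). Mrap had levels of 0.27 with PBS, 3.02 with daidzein, 1.76 with PT and 4.26 with daidzein+PT. With normexp Mc2r lay at 2.05, Ffar2 at 1.09 and Mc5r at 0.55. The other 16 receptor genes read were below 2-fold and the list's median was -0.18.

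Interferon-stimulated genes formed the main group on the lower side. Of 46 antiviral genes 43 were read, 42 were below 0, 15 were lower by 2-fold or more and 1 was higher, and the median was -0.71 (1.63-fold lower). Ifit3 had levels of 3.51 with PBS, 2.95 with daidzein, 2.65 with PT and 1.98 with daidzein+PT. Isg15, a ubiquitin-like protein and the brightest gene at 2-fold lower, had 6.10, 5.56, 5.66 and 4.85. Mx1, an antiviral GTPase, had 2.87, 2.27, 2.28 and 1.57. For these genes each single treatment lay between the PBS array and the combination. Ifi27l2a (5.32, 3.66, 5.54 and 3.83) and Oas2 (2.08, 1.13, 2.09 and 0.77) were low on both arrays with daidzein and were not low with PT alone. The others at 2-fold were Oas1a (-1.40), Rsad2 (-1.32), Ifit1 (-1.30), Cmpk2 (-1.26), Oasl2 (-1.23), Usp18 (-1.21), Mx2 (-1.20), Ifi44 (-1.16), Dhx58 (-1.05) and Irf7 (-1.03). The 1 higher member, Ifitm1 (1.06), rested on 1 of its 2 probes, the other giving 0.00.

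Some regulators and sensors of the antiviral response were below 2-fold. The factor Irf1 lay at -0.18 and the RNA sensors Ifih1 and Ddx58 at -0.21 and -0.38. The GTPases induced by interferon gamma had a median of -0.68 over 14 read of 16, with Tgtp2 (-1.40) and Igtp (-1.06) at 2-fold and Irgm2 (-0.94), Iigp1 (-0.84) and Gbp7 (-0.75) below it. Gbp2 (-0.03), Gbp5 (0.02) and Gvin1 (0.05) lay near 0, though the other probes of Gbp5 and Gvin1 gave -0.59 and -0.98. Antigen presentation by MHC class I, which interferon also induces, was hardly lower: H2-K1 lay at 0.01, H2-D1 at -0.10 and B2m at -0.02, against -0.60 for the immunoproteasome subunit Psmb9 and -0.53 for the peptide transporter Tap1, and 0 of 22 reached 2-fold. Slfn8 was lower by 1.53 on the log2 scale (0.84 with normexp). Chemokines and cytokines had a median of -0.14 over 23 read of 43, with 0 at 2-fold, Cx3cl1 at -0.59 and Cxcl10 at -0.50. With normexp 12 of the antiviral genes were at least 2-fold lower, and the list's median was -0.69.

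**Figure D4:**
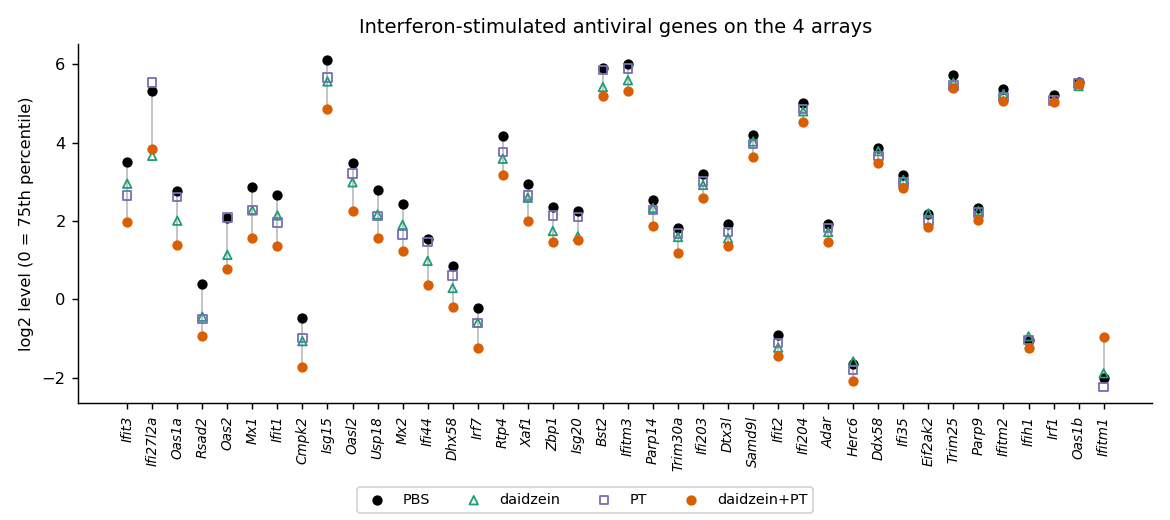
Log2 levels (y axis, 0 is the array's 75th percentile) of 40 of the 43 interferon-stimulated genes read, ordered by their difference, with 1 point for each of the 4 arrays; levels compare arrays within a gene, not genes. In 39 of the 40 genes the daidzein+PT point lies below the PBS point.

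Promoters of 5 lower genes are shown because some of the lower genes carry the GAAA repeat described above. The letters GAAA, any 2 bases and GAAA again, searched on both strands of the 300 bases from 250 before to 50 after the start in RefSeq's GRCm38.p6 table, were found in 1079 of 27025 genes (3.99%). They were in 16 of the 55 genes at least 2-fold lower that have a promoter there (29.1%), and in 10 of 285 at least 2-fold higher (3.51%). In the antiviral list they were in 5 of 9 genes at 2-fold lower and in 9 of 20 with a smaller difference. The 5 sequences printed here run from base -180 to base -20 relative to the start, 5′ to 3′ on the gene's strand, with every match in capitals. They are Ifit3 (chr19:34583349-34583509, plus strand), Ifit1 (chr19:34640709-34640869, plus), Isg15 (chr4:156200838-156200998, minus), Rsad2 (chr12:26456472-26456632, minus) and Tgtp2 (chr11:49064232-49064392, minus).
Ifit3: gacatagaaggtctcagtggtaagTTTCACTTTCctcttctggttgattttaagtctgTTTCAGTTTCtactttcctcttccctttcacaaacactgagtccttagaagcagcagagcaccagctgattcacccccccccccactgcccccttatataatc
Ifit1: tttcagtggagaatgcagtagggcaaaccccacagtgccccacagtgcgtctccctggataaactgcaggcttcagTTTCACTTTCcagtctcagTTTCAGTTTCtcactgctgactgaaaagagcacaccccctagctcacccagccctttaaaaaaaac
Isg15: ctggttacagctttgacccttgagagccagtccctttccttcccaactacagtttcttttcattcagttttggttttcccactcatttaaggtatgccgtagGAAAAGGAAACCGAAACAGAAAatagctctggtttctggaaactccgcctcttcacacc
Rsad2: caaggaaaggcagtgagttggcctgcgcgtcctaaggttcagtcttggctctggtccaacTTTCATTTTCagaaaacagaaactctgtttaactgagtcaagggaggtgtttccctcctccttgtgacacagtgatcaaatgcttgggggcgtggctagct
Tgtp2: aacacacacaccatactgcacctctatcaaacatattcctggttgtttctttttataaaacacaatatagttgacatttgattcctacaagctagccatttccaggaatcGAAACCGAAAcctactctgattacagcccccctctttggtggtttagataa
Ifit3 and Ifit1 each hold 2 matches, read on the opposite strand, Isg15 holds 3 that overlap, and Rsad2 and Tgtp2 hold 1. A match is a description of the letters and not of binding. Other motifs were searched in the same way. The sterol response letters TCACNCCAC were in 1 of 17 cholesterol genes (Hmgcs1) and in 1.44% of all promoters, the PPAR repeat (AGGTCA, any base, AGGTCA) in 0 of 285 genes at 2-fold higher and 13 of 27025 in all, and the C/EBP palindrome TTGCGCAA in 1 of 285 and 56 of 27025.

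Most genes read in the matrix and fibroblast lists lay below 0, by small amounts, and few reached 2-fold. Smoc2, a matricellular protein, was the lowest of the 25 lowest genes (mm9 chromosome 17, 14541664 to 14541723), with levels of 0.63 with PBS, -1.53 with daidzein, 0.61 with PT and -1.25 with daidzein+PT. Mmp3, a matrix protease, had 1.09, -0.39, 0.91 and -0.53. H19, an imprinted non-coding RNA, had 0.18, -2.72, -0.21 and -2.01, but its 4 probes ran from -2.31 to 0.20. All 3 were low on both arrays with daidzein and lay nearer to PBS with PT alone. Grem1, a BMP antagonist, had instead 1.74, 1.22, 1.70 and 0.36 and was lowest on the combination. Matricellular genes had a median of -0.34, with 23 of 28 below 0 and 1 at 2-fold. Collagens and their enzymes had -0.17, with 22 of 28 below 0 and 0 at 2-fold, and Col1a1 (0.13) and Col3a1 (-0.05) near 0. Matrix proteases and their inhibitors had -0.28, with Mmp3, Mmp9 (-1.15) and Plau (-1.03) at 2-fold lower and Timp4 (1.78) and Adam12 (1.04) higher, of which Mmp3 alone kept 2-fold with normexp. Preadipocyte and fibroblast genes had -0.25, with 22 of 27 below 0. The surface protein Pi16 was at -1.47, Ly6a at -0.82, Thy1 at -0.45, Pdgfra at -0.40 and Dlk1 at -0.38, while the summed linear level of the list was 2327 on PBS and 1995 on daidzein+PT.

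Growth pathways differed little. The IGF and imprinted genes had a median of -0.31 (13 of 15 below 0), the Wnt genes -0.16, with Lef1 (1.13, and 0.91 on array medians) and Rspo2 (1.06, and 0.35 with normexp) at 2-fold higher and Sfrp2 (-0.99) and Wnt10a (-0.92) just short of 2-fold lower, and the TGF-beta family -0.14. Inhba, the activin A subunit, was lower by 1.27 on the log2 scale and Id1, a BMP target, higher by 1.26. Cell cycle genes had a median of -0.22, with 40 of 46 below 0 and 0 at 2-fold. Ccnd1 lay at -0.71 and Kif23 at -0.88, while the inhibitor Cdkn2c was the highest at 0.90. ERK feedback genes had -0.12, with the phosphatase Dusp4 at 1.90 (1.17 with normexp).

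Markers of other cells were few and mostly dim. Of 25 myeloid genes 14 were read, 8 were above 0, and Ptprc, Adgre1 and Cd163 were read on neither array. Marco (3.29, and 1.52 with normexp) and Chil3 (1.93, and 1.09 with normexp) were at least 2-fold higher and Alox5ap (-1.59, and -0.99 with normexp) lower, while Cd68 (0.08), Csf1r (-0.01) and Lyz2 (0.08) were near 0. The list's summed linear level was 504 on PBS and 540 on daidzein+PT, nearly all of it from the probe named Lilrb3, which was taken for Pirb. Of the lymphoid list 5 of 15 were read (sums of 5.26 and 5.41) and of the endothelial list 4 of 12 (14.1 and 14.0), with the endothelial cadherin Cdh5 on neither array. Of 30 skeletal muscle genes 10 were read, with 4 at 2-fold lower and 1 higher and a median of -0.47, against 2 lower, 0 higher and -0.15 with normexp, and a median of 0.10 in the upper level groups. Tnni2, a fast troponin, had levels of -0.09 with PBS, -1.84 with daidzein, 0.10 with PT and -2.06 with daidzein+PT, Mamstr lay at -1.39 (-0.42 with normexp), Tnnt2 at -1.07 (-0.33) and Des at 1.74 (0.72), and Myod1 and Myog were read on neither array. Testis markers were examined because the extract comes from that organ. Of 28 germ cell genes 7 were read, with 0 at 2-fold and sums of 3.49 and 3.65, and the protamines Prm1 and Prm2 at 0.61 and 0.63 (Prm2 0.27 with normexp), while Ddx4 and Dazl were read on neither array. The Sertoli and Leydig list had 8 of 21 read on both arrays and 0 at 2-fold. Sycp3 of the germ cell list and Trf of the Sertoli and Leydig list were read on the daidzein+PT array alone. The part of such cells or RNA in the differences above was not tested.

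Detoxifying enzymes and carriers held single genes with large differences. Cyp2e1, a cytochrome P450, had levels of 0.11 with PBS, 3.07 with daidzein, 0.86 with PT and 3.39 with daidzein+PT, whereas the Ah receptor targets Cyp1b1 (-0.11), Tiparp (0.01) and Nqo1 (0.07) lay near 0. Among NRF2 targets and glutathione enzymes 4 of 39 were at least 2-fold higher, all of them transferases: Gsta3 (2.31), Mgst3 (1.63), Mgst2 (1.32) and Gstz1 (1.32). Hmox1 (0.13) and Gclm (0.30) were not. The other transferases read ran from Mgst1 (0.46) to Gsta2 (-0.70), with Gstm1 (0.05) and Gstp1 (0.00) between them. Slc13a4, a sulfate carrier, had -2.70, 0.46, -1.03 and 1.34, and the amino acid carrier Slc36a2 had -2.69, -1.13, -0.92 and 0.28. In Slc36a2 the single treatments stood close together, whereas in Slc13a4 the daidzein array was higher than the PT array. Carbonic anhydrases Car3 (3.22) and Car5b (2.38) and the vitamin A enzyme Aldh1a7 (2.60) were also high, as was Ltc4s (2.09), which makes leukotriene C4, while Ptgds lay at -1.01.

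Genes of general upkeep lay near 0. Ribosomal proteins had a median of -0.09, ER chaperones -0.07, heat shock proteins -0.03 and proteasome subunits 0.09, with 0 genes at 2-fold in any of these 4 lists. The 15 reference genes had a median of 0.02, with Actb at -0.01, Tbp at 0.00, Polr2a at 0.02 and Gapdh at 0.19, and the medians of the reference genes and of the proteasome were below 0 on array medians. The highest of the 15 were Tfrc (0.71) and Sdha (0.63).

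**Figure D5:**
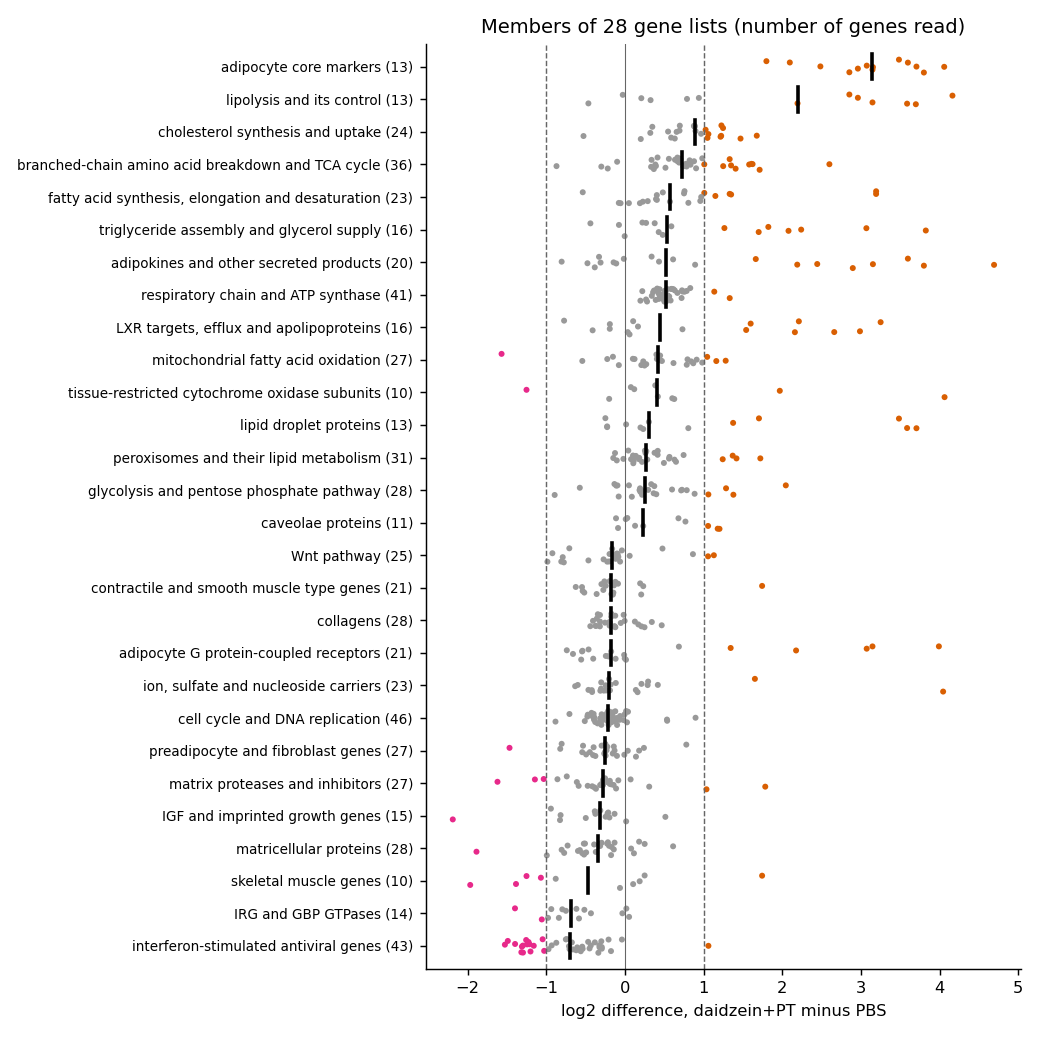
Log2 differences of the genes read in the 15 lists with the highest and the 13 with the lowest medians among lists with at least 10 genes read; each point is a gene, the black bar is the list's median and colours mark 2-fold or more. Medians run from 3.15 for adipocyte markers to -0.71 for interferon-stimulated genes.

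The single-treatment arrays can be set beside these values, although all 3 comparisons share the PBS array and are therefore not independent. The median of the adipocyte markers was 2.35 with daidzein, 1.08 with PT and 3.15 with both. Cholesterol synthesis had 0.42, 0.21 and 0.89, and branched-chain and TCA genes 0.40, 0.10 and 0.72. The respiratory chain had 0.26, 0.02 and 0.52. The antiviral list had -0.35, -0.21 and -0.71, and the interferon gamma GTPases -0.31, -0.34 and -0.68. In these lists the combination had the median farthest from 0. Cell cycle genes differed in this, with -0.34 for daidzein, -0.04 for PT and -0.22 for both.

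Genes read on 1 array alone give bounds instead of differences. On the daidzein+PT array alone 917 genes were read and on the PBS array alone 1007, and 582 and 75 of these had a bound of 2-fold or more. Each bound sets the brighter level against the lowest signal well above background on the dim array, or the gene's own signal there if that was higher. That lowest signal was lower on the PBS array than on the daidzein+PT array, which favours bounds on the higher side. The counts of 582 and 75 are therefore not a like-for-like contrast. Klb, the FGF21 coreceptor of adipocytes, was at least 17.4-fold higher, with levels of -2.03 with daidzein and -0.58 with daidzein+PT. Tmem45b was at least 15.8-fold higher, Smcp, a protein of sperm mitochondria, at least 15.6-fold, Kap, the kidney androgen-regulated protein, at least 14.2-fold and Ssxb6 at least 13.8-fold. Smcp was well above background on the daidzein+PT array only. Pck1, which supplies glycerol for triglyceride, was at least 13.4-fold higher. On the other side the keratin Krt15 was at least 6.62-fold lower, Ms4a6c 5.50-fold, Cyp2j5 4.05-fold, Kcnmb3 3.57-fold and Agbl2 3.40-fold, and of these Krt15 alone was also read on the single-treatment arrays.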

How the data were processed

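RNA of 1 sample per group was hybridized to 1 array each. The files the authors deposited give each spot's linear intensity, background-subtracted and detrended by Agilent Feature Extraction, with flags for spots well above background, per the file headers. The headers name version 10.7.1.1 and the submitters' processing notes 9.5.1.1. The deposited series table, an intensity on the linear scale that its values show to be quantile normalized, served as an alternative. The authors' raw mean and local background intensity went into the normexp alternative (limma 3.58.1, R 4.3.3).

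Control and outlier spots were left out, log2 signal was set against the 75th percentile of the 59305 non-control spots, copies of a probe were averaged, and a gene took its brightest of 55681 probes. Counts used a fold of 2. Probe positions are on mm9, and symbols and promoters are RefSeq's on GRCm38.p6. Python 3.11.15 scripts were tested on simulated data.

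Members and the 63 gene lists were chosen with earlier results of these data known. Named genes are Adipoq, the 25 highest and 25 lowest with a symbol in the upper 2 of 3 level groups, the 5 brightest at 2-fold each way, list members at 2-fold or largest in a list, the 5 highest bounds each way and 15 reference genes. Other genes named complete a family and were chosen after their values were seen. Some genes are counted in the lists but not reported here by name.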

Additional observations from a re-analysis of the deposited data

How the results depend on the processing

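With normexp background 287 genes were at least 2-fold higher and 37 lower, on array medians 238 were lower (373 higher), with no filter on dim probes 2780 and 1057 of 34796, and among the upper 12314 genes by level 223 and 49. Quantile normalization (442 and 125), the deposited table (443 and 123), the mean over probes (446 and 104) and kept outlier spots (474 and 102) stayed within 1.5 times. Scaling on array medians lowers every difference alike, in 168 of 211 gene values by more than their error. It also put several list medians that lay near 0 below 0. Normexp moved 75 of 211 gene values by more than their error, so signal near background limits the folds of dim genes. No paired analysis was possible because each group has 1 array. Without replicates, none could be left out.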

Other observations

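Several groups of neighbouring genes were at least 2-fold higher or lower together, counted among genes read on both arrays along mm9. Hsd11b1, G0s2 and Lamb3 on chromosome 1 ran from 1.42 to 3.59 over 121.9 kb, and Timp4, Syn2 and Pparg on chromosome 6 from 1.78 to 3.24 over 244 kb. Pairs at 2-fold higher included Fabp5 and Fabp4, Plin1 and Pex11a, Lpin1 and Greb1, Cav2 and Cav1, and Trem2 and Treml1, a pair of receptor genes. Pairs at 2-fold lower were Rsad2 and Cmpk2, Mx1 and Mx2, Ifit3 and Ifit1, and Oas1f and Oas1a. Whether such runs exceed what gene order alone would give was not tested.

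Aqp1, a water channel, had levels of 2.90 with PBS, 1.72 with daidzein, 3.15 with PT and 1.64 with daidzein+PT. Il1rl1, the receptor of interleukin 33, had 0.05, -0.99, -0.40 and -1.28, and Sohlh1, a germ cell transcription factor, had 0.51, -0.33, 0.53 and -0.66. Apol9b and Apol9a, near-identical interferon-inducible apolipoprotein L genes, were lower by 1.19 and 1.09 on the log2 scale. Ecm1, a matrix protein, was lower by 1.08 and Sorcs2, a sorting receptor, by 1.23 (0.96 with normexp). The bright gene Dbi, an acyl-CoA binding protein, was higher by 1.40. Clustered histone genes had a median of 0.08, with Hist1h4i at 1.76 and Hist1h2bc at 1.23.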
